A study of Mus musculus with 12 samples.

Results

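Immediate early genes were described in alveolar macrophages of mice whose liver had been resected. The 10 genes are the AP-1 subunits Fos, Fosb, Jun and Junb, the zinc-finger factors Egr1, Egr2 and Egr3, the stress-response factor Atf3, the early-response gene Ier3 and Myc. They were taken by name and found through the gene symbol in the array's probe annotation. The set was chosen with earlier results of these data known, so the counts below only describe it. They are 10 of 19505 genes with a symbol, and 12 of the 22206 probe sets tested carried one of their symbols. Egr3 had 3 probe sets, and the one with the highest mean over the arrays stands for it; each other gene had 1. The study used male C57 Black mice, with no age or genetic change given in the labels. RNA came from Siglec-F+ cells that were taken from the lungs with antibody-coated magnetic beads, frozen and lysed, and it was hybridised to 12 Clariom S mouse arrays. The 4 groups, each of 3 arrays, were animals with an intact liver, and animals studied on day 1, 3 or 7 after a resection that took out 70% of it. The labels name no sham operation for the intact group. They call the arrays biological replicates without saying whether an array holds 1 mouse or several, so the spread between arrays may in part be technical.

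Immediate early genes are switched on within minutes by growth factors, cytokines, adhesion or stress, through transcription factors that are already present in the cell and need only be phosphorylated. Fos and Jun proteins pair through leucine zippers to form AP-1, which binds DNA and, like the EGR zinc-finger proteins, passes the brief signal on to later genes. In macrophages these genes respond to bacterial products and to attachment, and digestion or sorting of a tissue can also induce them, so their level in sorted cells may belong to the living lung, to the handling or to both. In RNA from many cells, fewer cells of a type and less RNA per cell cannot be told apart.

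The arrays had near-equal median log2 signals, between 3.09 and 3.19, and differed in the quality controls. The area under the curve that separates exon from intron control probe sets ran between 0.809 and 0.888 over the 12 arrays. It was below 0.84 on 3 of them: the second day 1 array, the first day 3 array and the second day 7 array. The labelling control dap had a log2 signal of 6.47 to 7.77 on that day 3 array and on replicates 2 and 3 of day 7. The remaining 9 arrays had 2.13 to 2.89. The hybridisation control bioB, which is added to every array, had a log2 signal of 7.53 to 7.72 on the intact arrays, 8.62 to 10.29 on day 1, 7.44 to 7.83 on day 3 and 8.19 to 8.55 on day 7. All day 1 and day 7 arrays thus lay above all intact arrays in a control that does not come from the cells, and its part in the differences below was not tested. Of the 11 alveolar macrophage markers measured, the mean log2 signal per array lay between 9.17 and 9.96 on all 12 arrays, with Chil3, Plet1 and Cd9 above 10. Siglec-F is also carried by eosinophils, whose marker mean was 3.67 to 5.97. By group it was 3.97 to 5.12 in intact animals, 3.67 to 4.31 on day 1, 4.18 to 5.20 on day 3 and 4.36 to 5.97 on day 7. The differences of its 6 markers from intact ran from -1.55 to 2.14 on day 3 and from -0.27 to 2.71 on day 7. The 95th percentile of the intron controls, used here as the limit of background, was 5.01 to 5.69. On all 12 arrays, 9 of the 10 genes lay above it. Egr3 did so on 4, and its values are therefore close to background.

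On day 1 after resection 9 of the 10 genes had a lower mean log2 signal than in intact animals, and Egr2 did not. The differences of Ier3, Myc and Atf3 were the furthest below 0, at 2.74-fold, 2.03-fold and 1.84-fold lower, and those of Egr1, Jun, Fos, Fosb and Junb lay between 1.43-fold and 1.66-fold. Egr3 is given no fold, since its day 1 arrays were below background. None passed limma's moderated test after Benjamini-Hochberg adjustment over all probe sets at 0.05, where 0 of 22206 probe sets (0%) passed. At an unadjusted p under 0.05, 7 of the 10 were lower and none higher, against 5.9% of all probe sets lower. Lower values were common among probe sets above background on this day: of the 5990 that exceeded the background limit on 3 or more arrays, 11.2% were lower at that threshold and 73.9% had a difference below 0. For 8 of the 10 genes, all 3 day 1 arrays lay below all 3 intact arrays, against 8.94% of all probe sets and 14.9% of those above background. Without Egr3, 8 of 9 genes had a lower mean, 7 of 9 at an unadjusted p under 0.05, and 7 of 9 had groups that did not overlap. The median difference of the 10 genes was -0.63 on the log2 scale, against -0.01 over all probe sets.

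**Figure D1:**
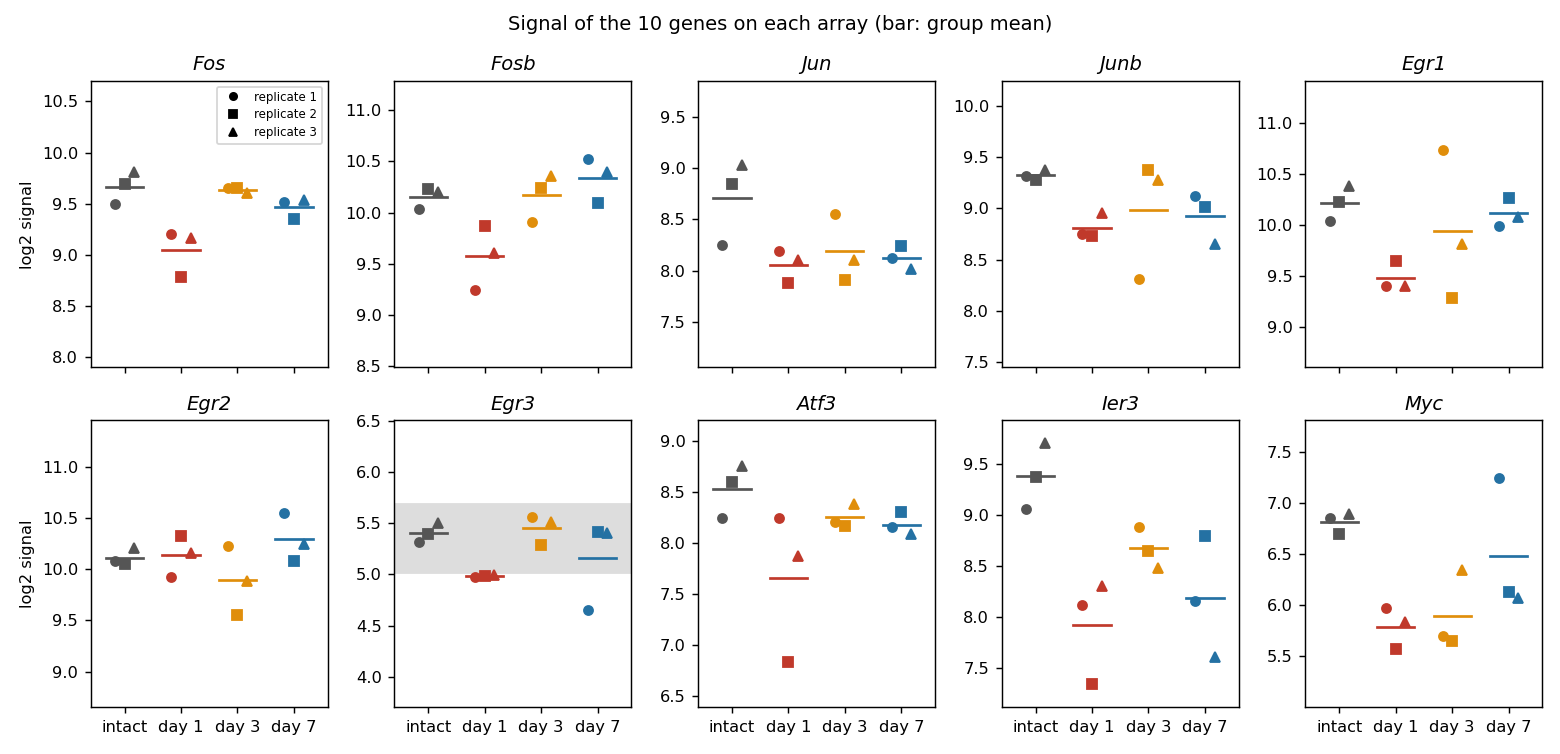
Log2 signal of each of the 10 genes (vertical axis, with an equal span in every panel) on each array of the intact, day 1, day 3 and day 7 groups; symbols give the replicate, bars the mean of 3 arrays, and the grey band in the Egr3 panel the range of the background limit over the arrays. The day 1 points lie under the intact points for all genes except Egr2 and Atf3.

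Fos, the AP-1 subunit that must pair with a Jun protein to bind DNA, had log2 signals of 9.50, 9.69 and 9.81 in intact animals, 9.20, 8.79 and 9.17 on day 1, 9.65, 9.65 and 9.61 on day 3 and 9.52, 9.35 and 9.53 on day 7. The 3 day 1 arrays were the lowest of the 12, and the day 3 values lay inside the intact range. On day 1 Fos differed from intact by -0.61 ± 0.16 (SE), with an unadjusted p of 0.00244 and an adjusted p of 0.289. Fosb, a Fos relative whose splice form is known for its long life in neurons, read 10.03, 10.23 and 10.20 in intact animals and 9.24, 9.87 and 9.61 on day 1. It read 9.90, 10.24 and 10.36 on day 3 and 10.53, 10.09 and 10.40 on day 7. Its day 1 arrays were again the lowest 3, and the later groups overlapped the intact one. The day 1 difference of Fosb was -0.58 ± 0.20 (SE; adjusted p = 0.426).

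Jun, which can form AP-1 with itself or with a Fos protein, had 8.25, 8.85 and 9.03 in intact animals, 8.19, 7.88 and 8.10 on day 1, 8.55, 7.90 and 8.11 on day 3 and 8.12, 8.24 and 8.02 on day 7. Its mean was under that of intact on all 3 days, although intact replicate 1 lay next to the day 7 arrays and day 3 replicate 1 within the intact range. The differences from intact were -0.65, -0.52 and -0.58 on days 1, 3 and 7, each ± 0.22 (SE), with adjusted p of 0.431, 1.00 and 0.765. Junb, a Jun relative that often opposes Jun in growth control, gave 9.32, 9.28 and 9.38 in intact animals and 8.75, 8.74 and 8.95 on day 1. On day 3 it gave 8.31, 9.38 and 9.28, and on day 7 9.12, 9.02 and 8.65. Its day 1 and day 7 arrays all lay under the intact ones, while on day 3 replicate 1 was far below them and the other two were at their level. The Junb differences were -0.52 on day 1, -0.34 on day 3 and -0.40 on day 7, each ± 0.25 (SE), and none reached an unadjusted p under 0.05. Without day 3 replicate 1, an array of weak control separation, the day 3 difference was 0.0006. Without day 3 replicate 2 it was -0.53, and without day 7 replicate 3 the day 7 difference was -0.26.

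Atf3, a leucine zipper factor of the stress response that can pair with Jun and restrains inflammatory genes in macrophages, read 8.24, 8.60 and 8.76 in intact animals, 8.25, 6.84 and 7.88 on day 1, 8.20, 8.16 and 8.38 on day 3 and 8.15, 8.30 and 8.08 on day 7. Day 1 replicate 2 was by far its lowest array, and day 1 replicate 1 sat within the intact range. The day 1 difference was -0.88 ± 0.29 (SE; adjusted p = 0.406), and it was -0.47 without day 1 replicate 2. For the same array left out, Fos differed from intact by -0.48, Egr1 by -0.81, Ier3 by -1.16 and Myc by -0.91, none of which passed the adjusted test.

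Egr1, the zinc-finger factor that reports growth factor and MAP kinase signals, had 10.04, 10.22 and 10.38 in intact animals, 9.41, 9.65 and 9.40 on day 1, 10.73, 9.28 and 9.81 on day 3 and 9.99, 10.27 and 10.08 on day 7. The day 1 arrays all lay under the intact range, the day 3 arrays spread on both sides of it, and the day 7 arrays overlapped it. Its differences were -0.73 on day 1, -0.27 on day 3 and -0.10 on day 7, each ± 0.29 (SE), with an adjusted p of 0.494 on day 1. Day 3 replicate 1 held the highest Egr1 value of all arrays, and without it the day 3 difference was -0.67. Without day 3 replicate 2 that difference was 0.05. Egr2, an EGR factor expressed in the macrophage and myelinating lineages, read 10.08, 10.05 and 10.21 in intact animals, 9.92, 10.33 and 10.16 on day 1, 10.23, 9.56 and 9.89 on day 3 and 10.55, 10.08 and 10.24 on day 7. Its 4 groups overlapped one another. The Egr2 difference on day 1 was 0.03, with a 95% interval of -0.41 to 0.46, so a difference as far from 0 as that of Fos or Jun lies outside the interval. Egr3, a calcium-responsive EGR factor of lymphocytes and neurons, had 5.32, 5.39 and 5.50 in intact animals and 4.98, 4.98 and 4.99 on day 1. It had 5.56, 5.29 and 5.51 on day 3 and 4.65, 5.42 and 5.40 on day 7. The day 1 values were lower than the intact ones, by -0.42 ± 0.20 (SE; adjusted p = 0.573). All 3 were below the background limit of their arrays, and another Egr3 probe set differed by 0.0019 on day 1, so no statement on Egr3 rests on more than background.

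Ier3, an early-response gene whose product is known to protect cells from death and to dampen NF-kappaB signals, had the largest difference from intact of the 10 genes on days 1 and 7, while on day 3 Myc had the largest. It read 9.06, 9.37 and 9.70 in intact animals, 8.12, 7.35 and 8.30 on day 1, 8.89, 8.65 and 8.48 on day 3 and 8.16, 8.80 and 7.61 on day 7. All 9 arrays of resected animals were under all 3 intact arrays, as for 0.919% of all probe sets. The differences were -1.45 on day 1, -0.70 on day 3 and -1.19 on day 7, each ± 0.31 (SE). Their adjusted p were 0.244, 1.00 and 0.395. The mean of the 3 days differed from intact by -1.11 ± 0.26 (SE; adjusted p = 0.222), or 2.17-fold lower. Each of 2 settings moved Ier3 past the threshold. When limma weighted the arrays by their estimated quality, day 7 was lower than intact by -1.51 (adjusted p = 0.00698), and without the 3 arrays of weak control separation by -1.49 (adjusted p = 0.0081). Under the same settings the mean of the 3 days was lower by -1.19 (adjusted p = 0.00295) and by -1.16 (adjusted p = 0.00469). Without these 3 arrays, 280 of 22206 probe sets passed on day 7 and 395 for the mean of the 3 days. With all 12 arrays 4 and 10 did.

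Myc, the leucine zipper factor that drives ribosome production and cell growth, had 6.85, 6.70 and 6.89 in intact animals, 5.97, 5.57 and 5.84 on day 1, 5.70, 5.65 and 6.35 on day 3 and 7.24, 6.13 and 6.08 on day 7. All day 1 and day 3 arrays lay under the intact ones, while on day 7 replicate 1 was the highest Myc array of the 12 and the other 2 were low. The differences were -1.02 on day 1, -0.92 on day 3 and -0.33 on day 7, each ± 0.29 (SE). Their adjusted p were 0.333, 0.843 and 1.00. Without day 7 replicate 1 the day 7 difference was -0.71, and without replicate 2 or 3 of that day it was -0.16 or -0.13. For the mean of the 3 days Myc was lower by -0.76 (adjusted p = 0.505), and with array weights by -0.73 (adjusted p = 0.0428). Jun was the third gene that weighting moved past the threshold for the mean of the 3 days, at -0.67 (adjusted p = 0.0272), against -0.59 unweighted (adjusted p = 0.493).

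**Figure D2:**
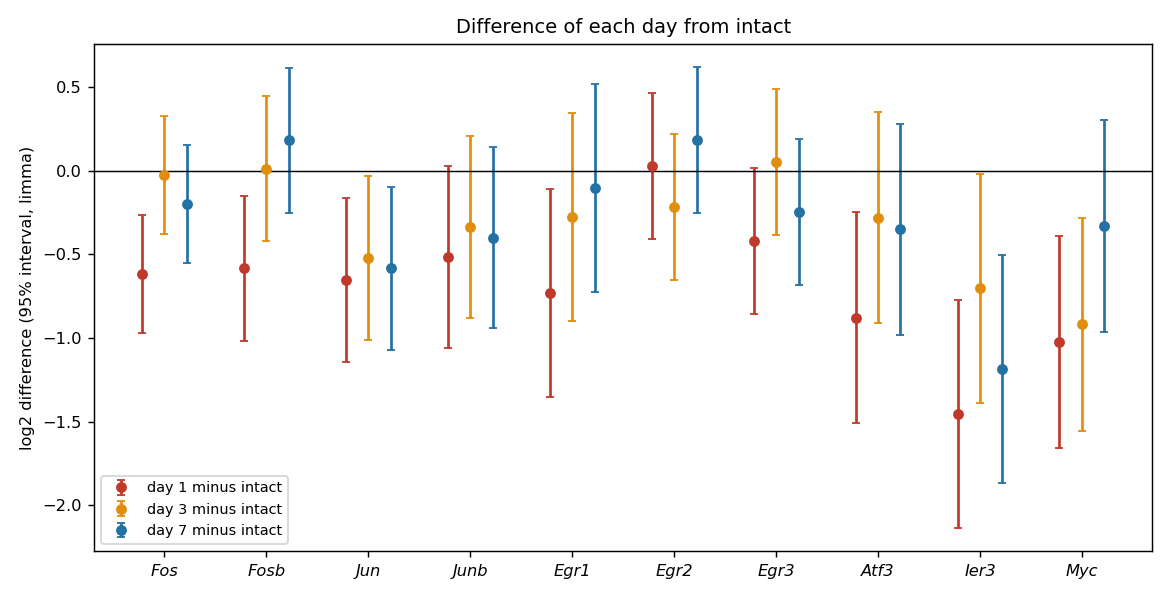
Log2 difference of each gene from intact (vertical axis) on day 1, day 3 and day 7, as points with limma's 95% intervals over 3 arrays a group. The day 1 interval lies under 0 for 7 genes, the Ier3 interval lies under 0 on each day, and the Egr2 intervals all span 0.

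Fewer of the 10 genes reached an unadjusted p under 0.05 on days 3 and 7 than on day 1, and whether single genes differ in the time they stayed low was not tested. On day 3, 8 of the 10 had a mean under intact (against 49.7% of all probe sets), with a median difference of -0.28, and on day 7 also 8 (against 51.7%), with a median of -0.29. At an unadjusted p under 0.05, Jun, Ier3 and Myc were lower on day 3, which is 3 of 10 against 2.5% of all probe sets and 3.96% of those above background. On day 7 Jun and Ier3 were lower, which is 2 of 10 against 3.74% and 4.82%. No gene of the 10 passed the adjusted test on day 3, where 0.0045% of probe sets did, or on day 7, where 0.018% did. Groups did not overlap on day 3 for Ier3 and Myc (2 of 10, against 6.68% of all probe sets) and on day 7 for Jun, Junb and Ier3 (3 of 10, against 8.15%). Among probe sets above background, the shares below 0 and without overlap were not counted for these days. For the mean of the 3 days no share was counted among them. For the mean of the 3 days against intact, all 10 differences were below 0 (against 49.9% of all probe sets), from -0.0034 for Egr2 to -1.11 for Ier3, but only Jun, Ier3 and Myc reached an unadjusted p under 0.05 (background 4.24% lower), and none the adjusted one (0.045%). The F test over the 4 groups reached an unadjusted p under 0.05 for Fos, Fosb, Jun, Ier3 and Myc, against 7.34% of all probe sets, and an adjusted p under 0.05 for none (0.00901%). With array weights Ier3 passed it (adjusted p = 0.0151), and without the 3 arrays of weak control separation Ier3 (0.0202) and Fosb (0.0471) did. Without these arrays 281 of 22206 probe sets passed it, against 2 with all 12.

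**Figure D3:**
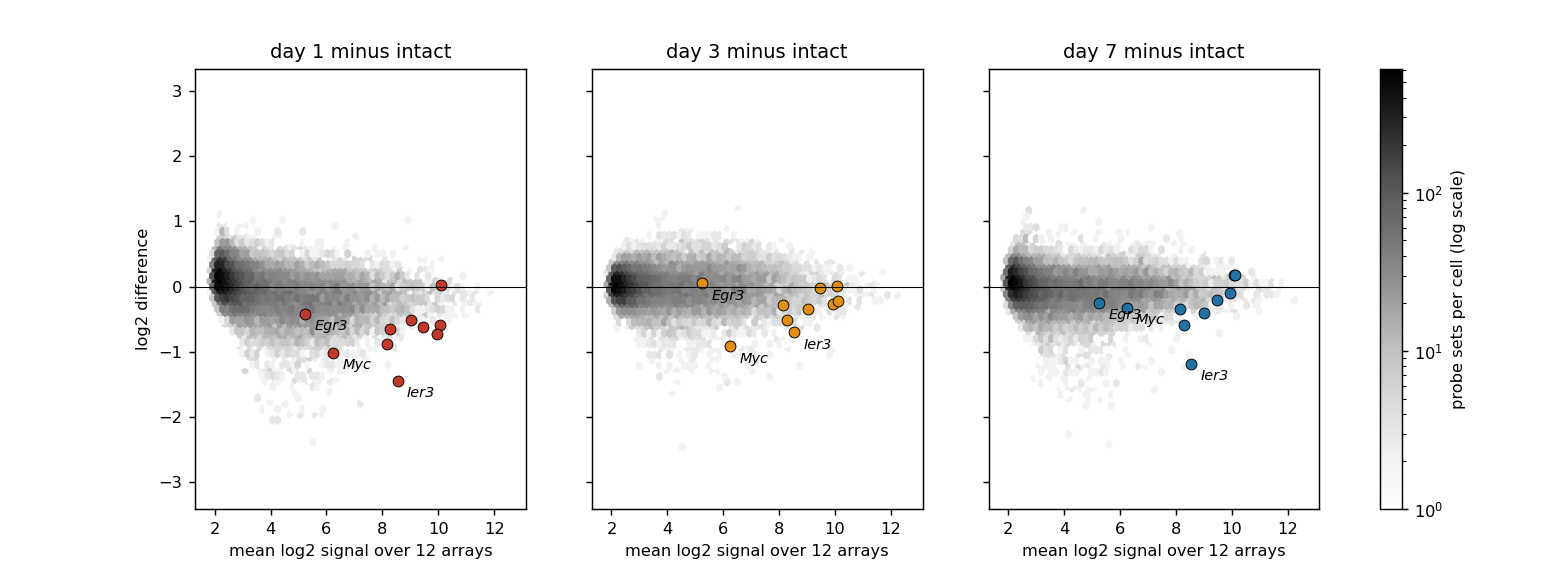
Log2 difference from intact (vertical axis) against the mean log2 signal over 12 arrays (horizontal axis) for 22206 probe sets in grey, with the 10 genes as coloured points, on day 1, day 3 and day 7. On day 1 the cloud of bright probe sets itself lies slightly under 0, and 9 of the 10 points lie under 0 with it.

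Compared between days, Fos and Fosb had higher values after day 1 than on it. Fos on day 3 exceeded day 1 by 0.59 and on day 7 by 0.42, each ± 0.16 (SE), and Fosb by 0.60 and 0.77, each ± 0.20 (SE). In all 4 of these comparisons the groups did not overlap. The adjusted p were 0.377, 0.738, 0.426 and 0.623, so none passed, like 0% of all probe sets in either comparison. On day 3 against day 1, Fos, Fosb, Egr3 and Ier3 were higher at an unadjusted p under 0.05, which is 4 of 10 against 6.32% of all probe sets, and 9 of 10 differences were above 0 (51% of all). The same 4 genes had groups that did not overlap, against 7.03%. Egr3 was below background on day 1, and its other probe sets differed by 0.11 and 0.02. Without Egr3 both counts were 3 of 9. The Ier3 difference was 0.75, and 0.46 without day 1 replicate 2. Without that array the count of 4 was 2, Fos and Fosb. On day 7 against day 1, Fos, Fosb, Egr1 and Myc were higher, again 4 of 10, against 3.81% of all probe sets, and all 10 differences were above 0 (50.3% of all). The Myc difference was 0.69, and 0.31 without day 7 replicate 1. The count of 4 was 2 without day 1 replicate 2 (Fosb and Egr1), day 1 replicate 3 (Fos and Fosb), day 7 replicate 1 (Fosb and Egr3) or day 7 replicate 3 (Fosb and Myc). Again the groups of these 4 did not overlap, against 4.55%. These comparisons share the day 1 arrays, as those above share the intact ones. On day 1 73.9% of the probe sets above background had a mean below intact. The shares given for the comparisons between days are over all probe sets, and none was counted for those above background. Jun differed by only 0.13 between day 3 and day 1 and by 0.07 between day 7 and day 1, each ± 0.22 (SE). Between day 7 and day 3 no gene reached an unadjusted p under 0.05, against 5.12% of all probe sets (0% adjusted), and Egr2 and Myc had the largest positive differences, 0.40 and 0.59.

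The promoters of 4 genes are printed because they span the range of responses, from Ier3, the furthest below intact on days 1 and 7, over Fos and Fosb to Egr2, whose day 1 difference was near 0. RefSeq (GRCm38.p6) promoter sequences were at hand for 7 of the 10 genes (Fos, Fosb, Jun, Junb, Egr2, Atf3 and Ier3), and each sequence below is the 250 bases before the transcript start, 5′ to 3′. Capitals mark matches to the core of a cyclic AMP response element (TGACG on either strand), an EGR site (GCGNGGGCG on either strand), a TATA box (TATAAA, forward) and the serum response element core called the CArG box (either strand). Fos lies at chr12:85473640-85473889 (plus strand), Fosb at chr7:19310046-19310295 (minus strand), Egr2 at chr10:67537619-67537868 (plus strand) and Ier3 at chr17:35821463-35821712 (plus strand).
Fos: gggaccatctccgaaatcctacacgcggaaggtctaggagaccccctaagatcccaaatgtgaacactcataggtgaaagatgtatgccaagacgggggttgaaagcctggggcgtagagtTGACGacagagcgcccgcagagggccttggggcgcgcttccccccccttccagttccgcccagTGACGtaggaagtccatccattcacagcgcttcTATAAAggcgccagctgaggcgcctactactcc
Fosb: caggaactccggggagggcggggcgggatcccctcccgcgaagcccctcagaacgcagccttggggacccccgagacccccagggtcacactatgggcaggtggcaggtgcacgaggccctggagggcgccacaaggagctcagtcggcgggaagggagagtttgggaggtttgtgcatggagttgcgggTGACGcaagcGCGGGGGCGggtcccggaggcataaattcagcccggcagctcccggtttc
Egr2: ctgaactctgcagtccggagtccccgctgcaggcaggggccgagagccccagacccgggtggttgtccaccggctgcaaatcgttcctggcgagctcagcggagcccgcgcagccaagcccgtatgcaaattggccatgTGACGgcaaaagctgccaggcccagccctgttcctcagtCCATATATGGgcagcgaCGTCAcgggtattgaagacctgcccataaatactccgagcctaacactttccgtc
Ier3: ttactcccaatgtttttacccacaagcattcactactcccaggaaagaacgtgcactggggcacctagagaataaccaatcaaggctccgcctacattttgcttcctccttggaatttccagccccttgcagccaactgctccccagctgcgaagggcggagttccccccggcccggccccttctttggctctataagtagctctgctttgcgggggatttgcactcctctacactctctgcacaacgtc
Fos holds this core 66 to 62 bases before its start, the position of its known calcium and cyclic AMP element, besides a TATA box 33 to 28 bases before it. Egr2 holds a CArG box 72 to 63 bases before this start. The same box lies in the 3 of its 5 RefSeq windows that overlap, and another sequence that matches the motif lies in a separate window. Fosb holds a match to the EGR site 50 to 42 bases before. The core stood in Fos, Fosb, Junb, Egr2 and Atf3, and in 17.8% of 32851 mouse promoter windows. The CArG box stood in 1.47% of them, the EGR site in 4.7% and the TATA box in 7.59%. The full element TGACGTCA (1.55%) and the AP-1 site TGACTCA or TGAGTCA (4.46%) matched in none of the 7 genes. These are letter matches in a short window and no evidence of binding.

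Among themselves the 10 genes varied together only in part. Over the 12 arrays the 45 pairs had Pearson correlations of -0.39 to 0.86 with a median of 0.45, and 38 were above 0. Fos and Atf3 had the highest, 0.86, followed by Jun and Ier3 (0.83) and Atf3 and Ier3 (0.79), and Egr2 and Egr3 the lowest. After each array's group mean was taken off, the median was 0.09 and 26 of 45 were above 0. The Fos and Atf3 pair kept 0.81 and the Jun and Ier3 pair 0.64. The points share their arrays and their quality, so these values are descriptions. The gene closest in pattern to the mean of the 10 over 12 arrays was Ece1 (r = 0.94), which codes for endothelin-converting enzyme, among 17087 genes compared. Ccl21a, Dpysl2, Rere and Ccn1 followed at 0.90 each. Ccn1 is itself a growth factor-induced early gene coding for a matrix protein. Ccl21a is a chemokine gene known from lymphatic endothelium and lymphoid stroma. For single genes the closest were Cpsf4 for Fosb (0.97), Ryk for Ier3 and Myl12a for Atf3 (both 0.96), Prss23 for Jun (0.95), Rps27rt for Junb (0.94), Ambra1 for Fos (0.93), Postn, a matrix gene of stromal cells, for Egr1 (0.92), Mfng for Myc (0.91), Sstr3 for Egr3 (0.89) and Capn13 for Egr2 (0.84). Ece1 had 4.23, 5.21 and 5.30 in intact animals and 3.91, 3.15 and 3.66 on day 1, where its difference was -1.34 (adjusted p = 0.213). All its values on days 1, 3 and 7 and the first intact one were below the background limit, so the size of this difference is uncertain. Ccl21a lay below the limit on the same arrays. Mfng did so on all day 1 and day 3 arrays and on replicates 2 and 3 of day 7. Ryk did so on all day 1 arrays, replicates 2 and 3 of day 3 and replicates 1 and 3 of day 7. The correlations of these 4 genes thus rest in large part on background signals. Rere, Cpsf4, Prss23, Postn, Sstr3 and Capn13 lay below the limit on all 12 arrays, so their correlations rest on background signals.

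Other genes of the same signalling system were read from lists drawn up with earlier results of these data known. They are only described, as counts, medians and means per array. Of 41 other immediate early genes, 38 were lower on day 1, 14 of them at an unadjusted p under 0.05 and none higher, with a median of -0.58. Over all probe sets 51.5% were below 0 and 5.9% lower at that threshold on day 1. Of those above background 73.9% were below 0 and 11.2% lower at that threshold. On day 3, 33 of 41 were lower (5 at that threshold, median -0.35), and on day 7, 34 (8, median -0.24). The shares over all probe sets were 49.7% below 0 and 2.5% at that threshold on day 3, and 51.7% and 3.74% on day 7. Among probe sets above background, the share below 0 was counted for day 1 only. None passed the adjusted test on any day. The mean log2 signal of this list was 7.29, 6.43 and 7.34 on the day 1 arrays, against 7.59 to 7.81 on the intact ones. Its lowest array was day 1 replicate 2, one of weak control separation. Nr4a1, an orphan nuclear receptor of activated macrophages, had 8.63, 8.54 and 8.95 on day 1, against 9.38, 9.44 and 9.31 in intact animals. Its difference was -0.67 on day 1 (adjusted p = 0.289) and -0.72 on day 3. Its relative Nr4a2 had 5.51, 4.49 and 6.0 on day 1, against 8.29, 7.60 and 7.28 in intact animals, a difference of -2.39 (adjusted p = 0.167). Ccn1 differed by -2.19 and Id3, an inhibitor of helix-loop-helix factors, by -1.15. The day 1 arrays of Nr4a1 and Nr4a2 did not overlap the intact ones.

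**Figure D4:**
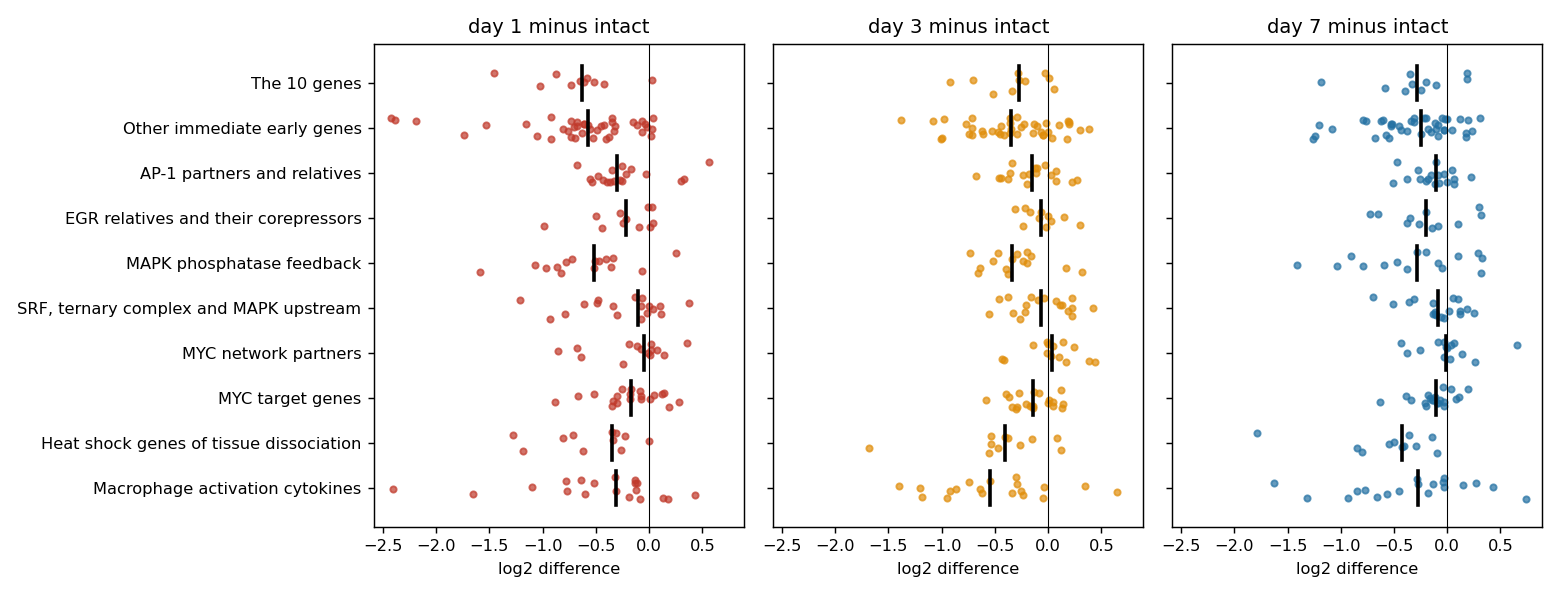
Log2 difference from intact (horizontal axis, one scale for the 3 panels) of every measured gene in the 10 genes and in 9 related lists (rows) on day 1, day 3 and day 7; the black bar is the median of a row and the vertical line marks no difference. On day 1 the medians of the 10 genes, the other immediate early genes and the phosphatases lie between -0.52 and -0.63, while those of the MYC partners and the SRF group lie near 0.

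Of the 18 partners and relatives of AP-1 measured, 15 were lower on day 1 with a median of -0.30, 3 of them at an unadjusted p under 0.05. Fosl2, a Fos relative, differed by -0.54 and Atf4, the translation-controlled stress factor, by -0.48. Fosl1, the Fos relative usually induced after Fos, had a positive difference of 0.56 (adjusted p = 0.431), with 6.98, 6.85 and 6.24 on day 1 against 5.98, 6.17 and 6.22 in intact animals. Of the 11 EGR relatives and their corepressors, 8 were lower on day 1 (median -0.21), and Klf6, a zinc-finger factor of injury, differed by -0.44. The MAP kinase phosphatases, which are induced by the same signals and end them, were lower in 14 of 15 (median -0.52, 5 at that threshold). Dusp10 differed by -1.59 and Dusp2 by -1.07, and Dusp2 also by -1.42 on day 7. The serum response factor and MAP kinase group, which acts upstream, had a median of -0.11, with 14 of 18 lower. Its member Elk3, a ternary complex factor, differed by -0.93 and the kinase Map2k4 by -0.79. MYC's partners had a median of -0.04, with 8 of 14 lower, and Mxi1, a MAX partner that opposes MYC, differed by -0.86. MYC target genes had a median of -0.17, with 14 of 20 lower and none at an unadjusted p under 0.05. All of these counts stand against 51.5% of all probe sets, and 73.9% of those above background, with a difference below 0 on day 1. At an unadjusted p under 0.05, 5.9% of all probe sets and 11.2% of those above background were lower. Day 1 replicate 2, an array of weak control separation, had the lowest mean signal of each of these lists. The phosphatases had means of 5.51, 4.63 and 5.57 on day 1, against 5.77 to 5.93 in intact animals. MYC target genes had 6.62, 5.92 and 6.66, against 6.48 to 6.69.

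Genes that mark cell handling and macrophage activation were also read. Of the 11 heat shock genes known to be induced by tissue dissociation, 10 were lower on day 1 (median -0.35), 9 on day 3 (median -0.41) and 11 on day 7 (median -0.43), 4, 2 and 3 of them at an unadjusted p under 0.05. Hspb1, a small heat shock protein, differed by -1.28, -1.68 and -1.79 on days 1, 3 and 7, and the chaperone gene Dnajb1 by -0.72, -0.56 and -0.54. Neither passed the adjusted test. Over all probe sets 51.5%, 49.7% and 51.7% were below 0 on days 1, 3 and 7, with 5.9%, 2.5% and 3.74% lower at that threshold, and of those above background 73.9% were below 0 and 11.2% lower at that threshold on day 1. Of 19 macrophage activation cytokines and surface genes, 16 were lower on day 1 (median -0.31), 17 on day 3 (median -0.55) and 15 on day 7 (median -0.27), where the differences ran from -1.63 to 0.74, to be read against the same shares. Tnf, the main early cytokine of macrophages, differed by only -0.12 on day 1 and by -0.75 on day 3. Cd69, an early activation marker, differed by -0.78, -0.95 and -0.66 on the 3 days. Unfolded protein response genes had a median of -0.25 on day 1, and none of 11 reached an unadjusted p under 0.05.

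Markers of other lung cells also differed between these arrays. The mean log2 signal of 9 endothelial markers was 6.03 to 7.00 in intact animals, 3.86 to 5.84 on day 1, 4.83 to 6.27 on day 3 and 4.62 to 5.79 on day 7. On day 1 all 9 were lower (median difference -1.48), as were all 10 markers of type 2 cells (-1.44), all 7 of type 1 cells (-1.59) and all 9 of fibroblasts and smooth muscle (-1.26). Neutrophil markers were higher in 9 of 11 (median 1.02), with a mean of 7.02 to 7.51 in intact animals and 7.40 to 8.52 on day 1. The alveolar macrophage markers themselves had a median difference of -0.02 on day 1, with 6 of 11 lower and a range of -1.06 to 0.21. At an unadjusted p under 0.05, 3 of the 11 were lower and none higher. The share lower at that threshold was 5.9% of all probe sets and 11.2% of those above background. On that day 51.5% of all probe sets and 73.9% of those above background had a difference below 0. The medians on days 3 and 7 were -1.20 and -1.50 for endothelium, -1.01 and -1.52 for type 2 and -0.59 and -1.23 for type 1 cells. They were -1.20 and -0.89 for fibroblasts and smooth muscle, 0.93 and 1.26 for neutrophils, and -0.22 and -0.04 for alveolar macrophages. The mean of the 10 immediate early genes was 8.67, 8.84 and 8.99 in intact animals, 8.20, 8.0 and 8.24 on day 1, 8.57, 8.38 and 8.58 on day 3 and 8.60, 8.57 and 8.41 on day 7. Its lowest array, day 1 replicate 2, was also the lowest for the endothelial, type 1 and type 2 markers and for the macrophage markers. The part of these other cells and of array quality in the values of the 10 genes was not tested.

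**Figure D5:**
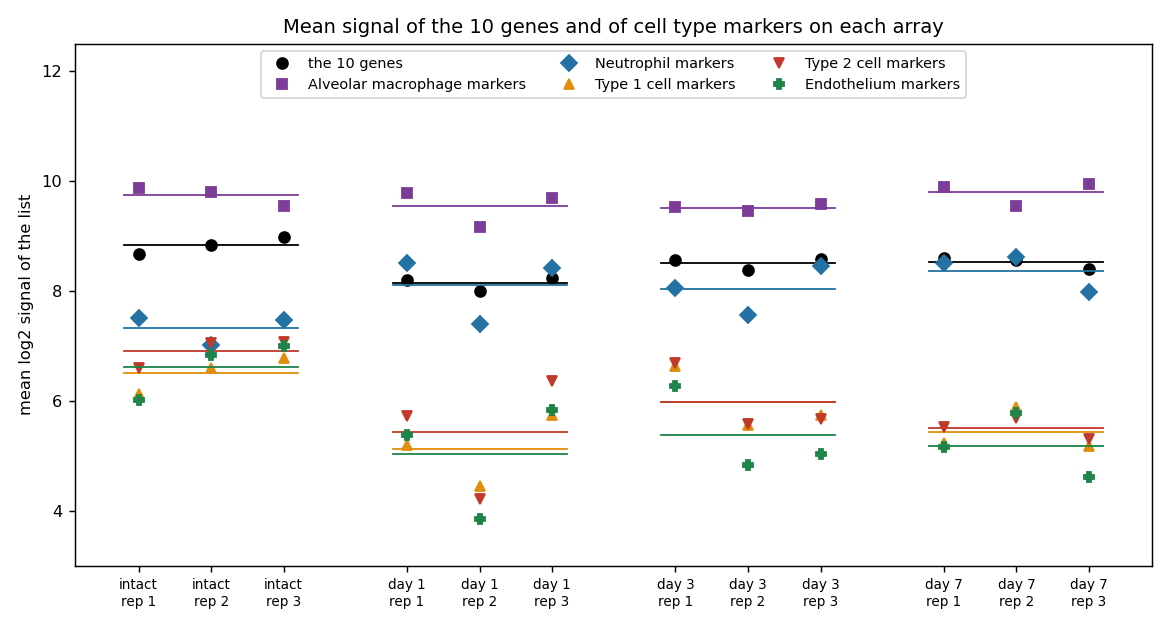
Mean log2 signal (vertical axis) of the 10 genes and of the marker lists of 5 cell types on each of the 12 arrays (horizontal axis, by group and replicate), with lines at the group means. The 10 genes lie at 8.0 to 8.24 on day 1 and at 8.67 to 8.99 in intact animals, and the endothelial, type 1 and type 2 markers have their lowest values on day 1 replicate 2.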

How the data were processed

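RNA from 12 samples of Siglec-F+ alveolar macrophages was measured on Clariom S mouse arrays in 4 groups of 3. Each deposited value is the log2 signal of 1 probe set; the authors ran RMA and the Transcriptome Analysis Console, per the submitters' processing notes, with no version given. RMA corrects background, normalizes quantiles and summarises the probes of a set, so values are comparable within a probe set and not between genes. The log2 scale is inferred from the range of the numbers. The aligner and genome build are not given in the sources used here. Of 28846 probe sets, 6640 controls were left out and 22206 tested. One limma 3.58.1 model (R 4.3.3) over all 12 arrays had the group as its only term, with empirical Bayes moderation (residual 8 and prior 4.37 degrees of freedom), two-sided tests and Benjamini-Hochberg adjustment over all probe sets of a comparison at 0.05. Differences are the tested group minus intact, or the later minus the earlier day. The fit was also run on simulated independent normal values with changes added to day 1. These values held no differences in array quality, so the run does not bear on such differences.

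All 10 genes are named. From each list of related genes up to 4 with the smallest F test p could be named, and the closest genes by Pearson correlation over 12 arrays. The members and lists were chosen with earlier results of these data known, and so were the quality limits of 0.84 and 5. Alternatives were quantile normalization, median centring, a filter on dim probe sets, trended robust moderation, the compared groups only, the replicate number as a block, array weights, the control dap as a term, other probe sets of a gene, an adjusted p of 0.1, and arrays left out. The number of arrays limits the precision. Same-numbered arrays of different groups did not deviate together (18 pairs, correlations of -0.24 to 0.26, 3 above 0.1), so the numbers were not taken as pairs.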

Additional observations from a re-analysis of the deposited data

How the results depend on the processing

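No gene of the 10 passed an adjusted p of 0.05 in any comparison when 1 array was left out, and under other settings 6 differences did, of Ier3, Jun and Myc, besides the F tests of Ier3 and Fosb. With array weights, 1 gene passed on day 7 against intact, 3 for the mean of the 3 days and 1 in the F test. Without the 3 arrays of weak control separation, 1, 1 and 2 passed. Among all 22206 probe sets 280, 395 and 281 passed without these arrays, against 4, 10 and 2 with all 12. With array weights the number over all probe sets was not counted. Of 528 values under other settings, 507 kept their direction and side of the threshold, and of 576 with 1 array left out, 561 did. Part of the kept directions was fixed beforehand. The threshold of 0.1, trended robust moderation, the replicate block and the compared groups only leave the size of a difference as it was. Averaging over probe sets could alter Egr3 alone. Leaving out an array of a group that a comparison does not use also leaves its difference unchanged. The 2 totals are therefore no measure of how stable the directions are. The count lower at an unadjusted p under 0.05 on day 1, 7, was 4 after quantile normalization. It was 9 with array weights, with dap as a term and with the compared groups only, and 8 without the 3 arrays. With 1 array left out it was 5 to 8 (5 without intact replicate 3 or day 1 replicate 1). On day 3 the count of 3 became 1 with the filter on dim probe sets, 1 with the replicate block, 5 without the 3 arrays, and 1 to 4 with 1 array left out (1 without either of intact replicates 2 and 3 or of day 3 replicates 2 and 3). On day 7 the count of 2 became 4 with array weights and 1 to 3 with 1 array left out (1 without either of intact replicates 2 and 3 or without replicate 3 of day 7). For the mean of the 3 days the count of 3 became 7 with array weights, 5 with dap as a term, 6 without the 3 arrays, and 2 to 5 with 1 array left out (5 without replicate 1 of intact or of day 3, or without replicates 1 or 3 of day 1). The counts of 4 that were higher on day 3 and on day 7 than on day 1 were 2 to 4 under the other settings and with 1 array left out. The block moved no other count that far, and no gene passed the adjusted test with it. The share of all probe sets at an unadjusted p under 0.05 was not counted under any other setting or with 1 array left out. Whether the counts of the 10 genes moved more than that share was therefore not tested.

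The sign of some differences turned, and the cause was not tested. On day 1, Egr2 was -0.0372 with array weights, -0.0685 without the 3 arrays and -0.0685 to 0.1354 with 1 array left out, and Egr3 was 0.0019 by another probe set. On day 3, Fos was 0.0199 after quantile normalization and -0.1134 to 0.0451 with 1 array left out, Fosb -0.0828 to 0.1443, Junb -0.532 to 0.0006 (0.0006 also without the 3 arrays) and Egr1 -0.6697 to 0.0544. Egr3 on day 3 was -0.1019 with dap as a term, -0.0428 as the mean of its probe sets, -0.002 without the 3 arrays, -0.2004 by another probe set and -0.002 to 0.1317 with 1 array left out. On day 7, dap as a term gave Junb 0.0337 and Myc 0.15. Egr3 on day 7 was 0.2477 by another probe set and -0.3765 to 0.006 with 1 array left out. For the mean of the 3 days, Egr2 was 0.0269 after median centring, 0.0702 after quantile normalization and -0.0599 to 0.0525 with 1 array left out, and Egr3 was 0.0903 by another probe set. The 3 arrays of a group limit the precision, with an SE of 0.16 to 0.31 for a day against intact, and Egr3 is limited further by a signal close to background.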
